A study of Homo sapiens with 2 samples.

Results

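The neuroendocrine markers and drivers described here are 9 genes, taken by their symbols from the table of 21382 genes measured in 2 human prostate cancer (PCa) cell lines. They fall into 3 roles: the markers CHGA, CHGB, SYP, ENO2 and NCAM1, the transcription factors INSM1, MYCN and REST, and the splicing factor SRRM4. All 9 symbols were found, each as a single locus. The rule for choosing them used gene names, and the list was drawn up with earlier results of these data known. The study asked how PCa cells and platelets activate each other, and RNA-Seq was its source of gene expression in both cell lines.

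MDA PCa 2b cells were kept in a Ham's F-12 medium that held serum, cholera toxin, epidermal growth factor, phosphoethanolamine, hydrocortisone, selenite and insulin. RC77 T/E cells were kept in a keratinocyte medium without serum, to which epidermal growth factor and bovine pituitary extract were added. Both cell lines were untreated, and each gave 1 directional paired-end library of total RNA. The cell line and its medium therefore cannot be told apart, no difference has a replicate error, and no test or p-value is given. Expression is in TPM, a transcript abundance that allows for transcript length and library total, and the depth behind it is unknown. In bulk RNA, fewer cells that express a gene and less of its RNA per cell cannot be told apart.

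Neuroendocrine cells store peptide hormones in dense-core granules and share much of their vesicle machinery with neurons. In the prostate they are a rare epithelial cell type, and an aggressive neuroendocrine form of PCa can arise under hormone therapy. REST is a repressor that keeps neuronal genes silent outside the nervous system by binding a DNA element called RE1. SRRM4 can lower REST activity by changing how the REST transcript is spliced, while MYCN and INSM1 promote the neuroendocrine state.

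Promoter sequence is shown for a marker gene and for REST target genes, from RefSeq windows on GRCh38.p14 that reach from 250 bases before each gene's start. Of the 9 genes, 6 had such a window, and REST had 2, which makes 7 windows. CHGA is shown because it is the standard neuroendocrine marker. In the line below, read on the plus strand over chr14:92923050-92923149, the capitals mark a cyclic AMP response element (CRE, searched as TGACGTCA, which reads the same on both strands) at positions -54 to -47 from the start, and the TATA box letters that follow it.
CHGA: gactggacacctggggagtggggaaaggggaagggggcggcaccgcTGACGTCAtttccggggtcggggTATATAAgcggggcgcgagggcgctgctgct
The CRE letters were held by 649 of 35116 human windows, or 1.85%. They were also in the windows of PCSK1, SYN1 and VGF.

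SYN1 and VGF are shown because they are REST target genes whose windows held RE1 letters. The RE1 was searched on both strands as TTCAGCACC, then 2 free bases, then GGACAGCGC, with at most 1 mismatch. Capitals mark the letters that match. The SYN1 match is on the minus strand over chrX:47620071-47620090, at positions -233 to -214 from the start. The VGF match is read on the plus strand, opposite to the gene, over chr7:101165559-101165578, and runs across the start.
SYN1: TTCAGCACCgcGGACAGtGC
VGF: TTCAGCACgctGGACAGCGC
Such a match was in 9 of 35116 windows, or 0.0256%, and in 2 of the 10 windowed genes among the 14 REST targets listed here. None of the 7 windows of the neuroendocrine genes held these letters. A match this rare over all windows makes that absence uninformative, and sequence outside the windows was not searched.

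Most of the 9 genes were at very low levels in both cell lines. A gene was counted as expressed at 1 TPM or more. By that rule 2 of the 9 were expressed in MDA PCa 2b (ENO2 and REST), where 49.6% of all genes were, and 3 of the 9 in RC77 T/E (ENO2, REST and CHGB), where 52.8% of all genes were. The remaining 6, namely CHGA, SYP, NCAM1, INSM1, MYCN and SRRM4, were under 1 TPM in both. Some deposited values had lost their decimal mark, and where several positions matched the deposited mean and standard error, all of the possible values are given. Of the 9 genes this concerned ENO2 and REST.

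**Figure D1:**
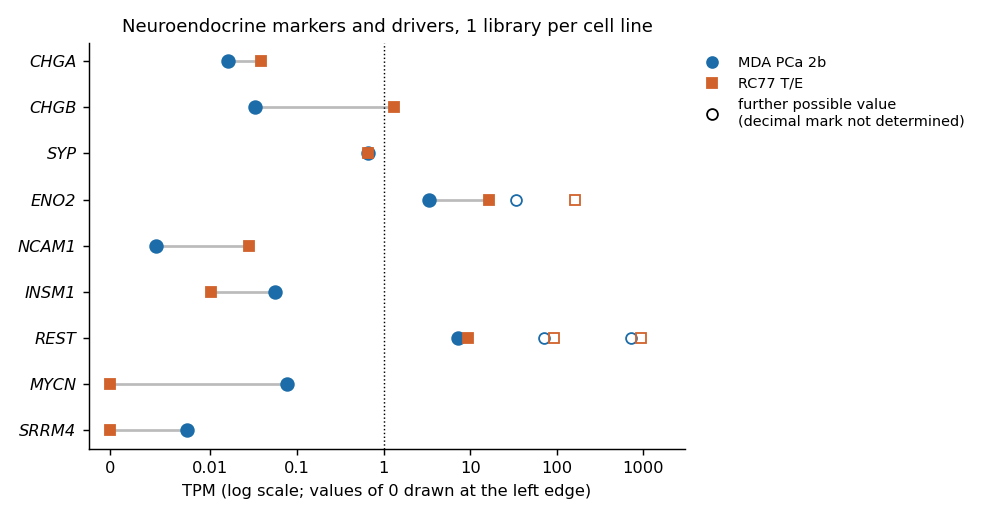
Expression of the 9 genes in TPM on a log axis, with circles for MDA PCa 2b, squares for RC77 T/E, open symbols for the further possible values of ENO2 and REST, and a dotted line at 1 TPM. Only ENO2 and REST lie right of the line in both cell lines, CHGB crosses it in RC77 T/E, and MYCN and SRRM4 are listed at 0 in RC77 T/E.

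CHGA encodes chromogranin A, an acidic protein of dense-core granules and the most used serum and tissue marker of neuroendocrine tumours. CHGA (ENSG00000100604, GRCh38 chromosome 14, 92923150 to 92935285) measured 0.0162 TPM in MDA PCa 2b, against 0.0382 TPM in RC77 T/E. Both values were far under 1 TPM, and 14387 and 14184 of the 21381 other genes were higher in the respective library. CHGB (ENSG00000089199, chromosome 20, 5911510 to 5925353) encodes chromogranin B, another granule protein. CHGB was at 0.0331 TPM in MDA PCa 2b, against 1.31 TPM in RC77 T/E. The ratio of these levels was 39.6, but it rests on a level under 0.1 TPM, and on the log2 scale it was 1.16 with 1 TPM added and 3.40 with 0.1 TPM added. CHGA was also higher in RC77 T/E, by 2.36 times at levels under 0.1 TPM. CHGB was the single gene of the 9 that was expressed in RC77 T/E only. The neighbours of CHGB, MCM8 and TRMT6, which act in DNA repair and tRNA modification, were also higher in RC77 T/E, with log2 ratios of 1.97 and 1.10 after 1 TPM was added, while the neighbour CRLS1, a cardiolipin synthase, had a ratio of -0.98.

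SYP encodes synaptophysin, a membrane protein of small vesicles that pathologists stain together with chromogranin A. SYP (ENSG00000102003, chromosome X, 49187815 to 49200218) measured 0.662 TPM in MDA PCa 2b, against 0.666 TPM in RC77 T/E. These are nearly equal levels just under the expression threshold, and SYP would be counted as expressed in both at a threshold of 0.5 TPM. Among the proteins related to synaptophysin, the broadly expressed SYPL1 and SYNGR2 were above 1 TPM in both cell lines, and the neuronal SYNPR was listed at 0 in both. SYNGR2 was 4.98 times higher in MDA PCa 2b than in RC77 T/E.

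ENO2 encodes neuron-specific enolase, a glycolytic enzyme that is measured in blood as a neuroendocrine marker but is also made by other cells. ENO2 (ENSG00000111674, chromosome 12, 6913745 to 6923698) measured 3.36 TPM in MDA PCa 2b, against 16.4 TPM in RC77 T/E, or, with the decimal mark 1 place further, 33.6 and 164 TPM. At either position RC77 T/E had 4.86 times the level of MDA PCa 2b. Of the other enolase genes, the broadly used ENO1 was 1.47 times higher in RC77 T/E, and the muscle form ENO3 was 1.29 times higher in MDA PCa 2b. ENO2 overlaps LRRC23 on the same strand, and LRRC23 was at 2.19 TPM in MDA PCa 2b, against 1.95 TPM in RC77 T/E.

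NCAM1 encodes the neural cell adhesion molecule CD56, which also marks natural killer cells. NCAM1 (ENSG00000149294, chromosome 11, 112961247 to 113278436) measured 0.00235 TPM in MDA PCa 2b, against 0.0283 TPM in RC77 T/E. It was the lowest of the 9 genes in MDA PCa 2b. Its relative NCAM2 was listed at 0 in RC77 T/E and at 3.63, 36.3 or 363 TPM in MDA PCa 2b. The natural killer cell genes NKG7 and GNLY were under 0.0215 TPM in both libraries. Of the enzymes that add polysialic acid to NCAM1, neither ST8SIA2 nor ST8SIA4 reached 1 TPM in either line.

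INSM1 is a zinc finger transcription factor of developing neuroendocrine cells. INSM1 (ENSG00000173404, chromosome 20, 20368104 to 20370949) measured 0.0561 TPM in MDA PCa 2b, against 0.0101 TPM in RC77 T/E. MYCN, the neuronal member of the MYC family that is amplified in some neuroendocrine PCa, was at 0.0763 TPM in MDA PCa 2b but was listed at 0 in RC77 T/E (ENSG00000134323, chromosome 2, 15940550 to 15947007). SRRM4, which drives the inclusion of neural microexons, was at 0.00540 TPM in MDA PCa 2b but was listed at 0 in RC77 T/E (ENSG00000139767, chromosome 12, 118981541 to 119163051). All 3 of these drivers were higher in MDA PCa 2b as deposited, but at levels under 0.1 TPM, for which the unknown depth gives no precision. With 1 TPM added, the sign of their log2 ratios turned when ratios were centred on the median of all expressed genes. That centring shifts ratios which the added 1 TPM had made small. The sign did not turn when each library was scaled by its upper quartile of TPM.

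Among INSM1, MYCN, SRRM4 and REST, only REST, the repressor of neuronal genes, was at 1 TPM or more. REST (ENSG00000084093, chromosome 4, 56907876 to 56966808) measured 7.17 TPM in MDA PCa 2b, against 9.35 TPM in RC77 T/E, or 71.7 and 93.5 TPM, or 717 and 935 TPM, depending on the decimal mark. At each position RC77 T/E had 1.31 times the level of MDA PCa 2b. REST overlaps NOA1 on the opposite strand, which was at 21.4 or 214 TPM in MDA PCa 2b, against 15.8 or 158 TPM in RC77 T/E, and whether strand was used in computing TPM is not given in the sources used here. The values are per gene, so spliced forms of REST are not separated.

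The order of the levels was not fully determined because of the open marks. ENO2 and REST were the highest in both cell lines, in an order that the marks leave unknown. In MDA PCa 2b they were followed by SYP, MYCN, INSM1, CHGB, CHGA, SRRM4 and NCAM1. In RC77 T/E they were followed by CHGB, SYP, CHGA, NCAM1 and INSM1, with MYCN and SRRM4 at 0. With 1 library per line there is no spread by which neighbours in these orders could be separated.

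The size of each difference was set on a log2 scale with 1 TPM added to both values, which understates the change of low genes. Positive log2 ratios mean a higher level in RC77 T/E. The ratio was 1.99 for ENO2 and 1.16 for CHGB, so that 2 of the 9 genes exceeded MDA PCa 2b by 2-fold or more, beside 11.3% of all genes. CHGB averaged under 1 TPM. When such genes are left out, only ENO2 and REST remain, and of these ENO2 passed the fold. The reverse difference of 2-fold or more was found for 0 of the 9, beside 11.4% of all genes. Among the 11624 genes averaging 1 TPM or more over both libraries, 19.4% passed this fold towards RC77 T/E and 20.0% towards MDA PCa 2b, with a median log2 ratio of -0.15. REST had a log2 ratio of 0.34. The other 6 lay between -0.11 for MYCN and 0.04 for NCAM1, and the median over the 9 genes was 0.03. The small negative ratios of INSM1, MYCN and SRRM4 turned to 0.09, 0.05 and 0.15 when ratios were centred on the median of -0.15. Scaling each library by its upper quartile of TPM kept them negative, at -0.06, -0.10 and -0.0075.

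**Figure D2:**
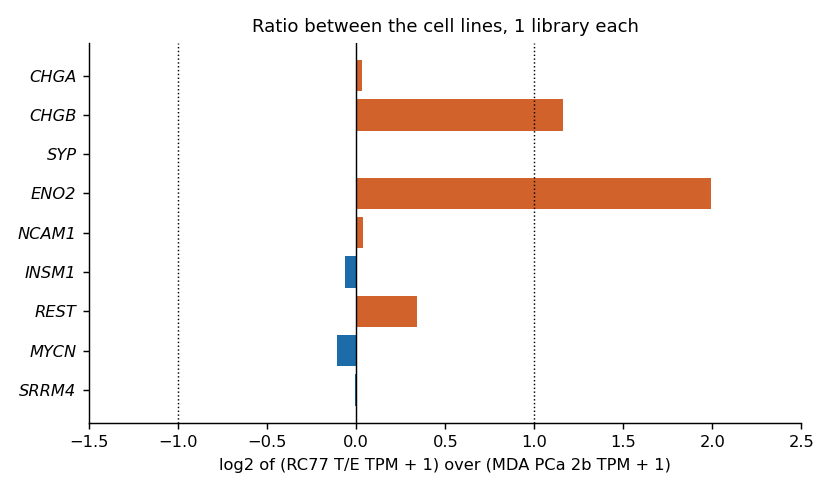
Log2 ratio for the 9 genes after adding 1 TPM, positive where RC77 T/E was higher, with dotted lines at a 2-fold difference. The bars of ENO2 (1.99) and CHGB (1.16) pass the line on the RC77 T/E side, and no bar passes it on the MDA PCa 2b side.

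Other genes of the granule pathway included several that were near 0 in MDA PCa 2b and well above 1 TPM in RC77 T/E. Of 9 listed genes of dense-core granules and peptide processing, 1 reached 1 TPM in MDA PCa 2b against 5 in RC77 T/E. Beside them, 49.6% and 52.8% of all genes did so, and the RC77 T/E count was near that share. Of the 9, 4 were 2-fold or more towards RC77 T/E and 0 towards MDA PCa 2b, beside 11.3% and 11.4% of all genes. The median log2 ratio was 0.24. That median was 2.62 over the genes averaging 1 TPM or more, and 1.32 with 0.1 TPM added in place of 1. All genes kept by that filter except CPE pass it only through RC77 T/E, so the sign of 2.62 follows from the filter. PCSK1N, which encodes an inhibitor of prohormone convertase, was at 0.0356 TPM in MDA PCa 2b, against 40.2 TPM in RC77 T/E. PAM, the enzyme that amidates peptide hormones, was at 0.0471 TPM in MDA PCa 2b, against 29.1 TPM in RC77 T/E. SCG5, a chaperone of prohormone convertase 2, was at 0.0250 and 5.29 TPM, and the granule peptide precursor VGF at 0.235 and 2.92 TPM. The convertases themselves were not expressed: PCSK1 was at 0.0208 and 0.202 TPM, and PCSK2 was listed at 0 in both. The trimming enzyme CPE was expressed in both and was 1.97 times higher in MDA PCa 2b. The granins SCG2 and SCG3 were under 0.1 TPM in both cell lines, like CHGA.

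Among 10 listed genes of the synaptic vesicle machinery, in which synaptophysin acts, 4 reached 1 TPM in MDA PCa 2b against 6 in RC77 T/E. These counts were near the shares of all genes, 49.6% and 52.8%. Differences ran both ways, with 3 genes 2-fold or more towards RC77 T/E and 3 towards MDA PCa 2b, beside 11.3% and 11.4% of all genes. The median log2 ratio was 0.29, or 0.98 with 0.1 TPM added. The calcium sensor SYT1 was at 0.00448 TPM in MDA PCa 2b, against 2.61 TPM in RC77 T/E, and the vesicle glycoprotein SV2A at 0.0412 and 6.31 TPM. STX1A, a fusion protein of the cell membrane, was 4.80 times higher in RC77 T/E. In contrast, the fusion regulator CPLX1 was at 4.08 TPM in MDA PCa 2b, against 0.105 TPM in RC77 T/E, and RAB3A and VAMP2 were 8.04 and 2.18 times higher in MDA PCa 2b.

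Most other neuroendocrine transcription factors were under 1 TPM, like INSM1. Of 13 listed, 1 was expressed in each line and 11 were under 1 TPM in both. NEUROD1 and NEUROG3, proneural factors of neuroendocrine development, were listed at 0 in both. FOXA2, a pioneer factor of endodermal tissues, was at 0.193 TPM in MDA PCa 2b, against 3.88 TPM in RC77 T/E. ONECUT2, a homeobox factor, went the other way, at 1.16 TPM in MDA PCa 2b, against 0.00572 TPM in RC77 T/E.

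Of 10 further surface, peptide and cytoplasmic markers, 2 reached 1 TPM in MDA PCa 2b against 5 in RC77 T/E. Beside them, 49.6% and 52.8% of all genes did so, and the RC77 T/E count was near that share. Of the 10, 5 were 2-fold or more towards RC77 T/E and 1 towards MDA PCa 2b, beside 11.3% and 11.4% of all genes. The median log2 ratio was 0.60. The median was 3.23 when genes averaging under 1 TPM were left out, and 2.14 with 0.1 TPM added. DLL3, UCHL1 and PEG10 pass that filter only through RC77 T/E, and DDC only through MDA PCa 2b. The value of 3.23 therefore depends in part on the filter itself. UCHL1, a neuronal deubiquitinating enzyme, was at 0.124 TPM in MDA PCa 2b, against 209 TPM in RC77 T/E. PEG10, a retrotransposon-derived gene, was at 0.338 and 22.3 TPM, and DLL3, a Notch ligand targeted in neuroendocrine tumours, at 0.288 and 3.17 TPM. The neuronal tubulin TUBB3 was 11.1 times higher in RC77 T/E. DDC, which makes dopamine and serotonin, was the only marker of the 10 that passed 2-fold towards MDA PCa 2b after adding 1 TPM. DDC was at 3.70 TPM there, against 0.0302 TPM in RC77 T/E. CEACAM5, though under 1 TPM in both, was also higher in MDA PCa 2b, at 0.246 TPM, against 0.0457 TPM in RC77 T/E. The peptide hormone gene GRP was listed at 0 in both, and CALCA and NTS were under 1 TPM in both. Of these, CALCA was listed at 0 only in RC77 T/E, and NTS only in MDA PCa 2b.

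**Figure D3:**
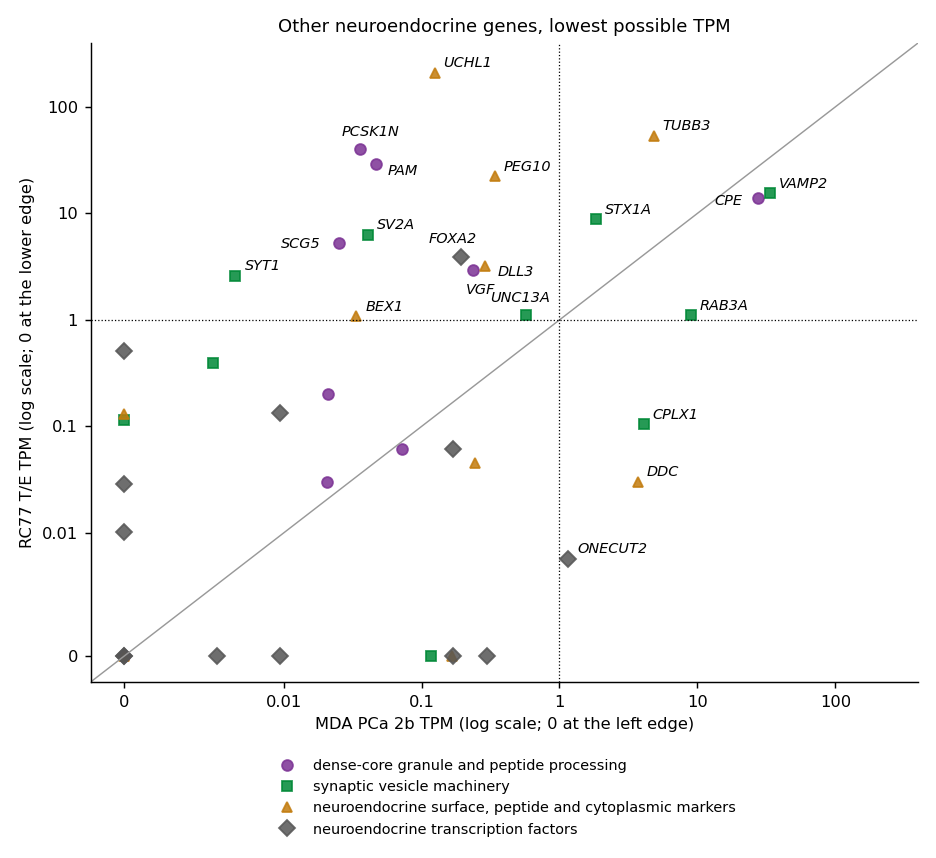
TPM in MDA PCa 2b (x axis) and RC77 T/E (y axis) of the other listed neuroendocrine genes, on log axes, at the lowest position of the decimal mark, with a line of equal level and dotted lines at 1 TPM. Genes expressed in a line are named: UCHL1, PCSK1N, PAM and SYT1 lie far above the line of equal level, CPLX1, DDC and ONECUT2 lie below it, and most transcription factors lie under 1 TPM on both axes.

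REST acts through complexes that modify chromatin, and these were expressed in both cell lines. Of 15 listed corepressor genes, 14 were at 1 TPM or more in each line, the exception being RCOR2, and 0 were at least 2-fold apart after adding 1 TPM, with a median log2 ratio of -0.44 beside -0.15 over expressed genes. The histone demethylase KDM1A was at 71.5 TPM in MDA PCa 2b, against 52.2 TPM in RC77 T/E, and the deacetylase HDAC1 at 126 and 89.6 TPM. The scaffold RCOR1, which joins REST to KDM1A, was 1.65 times higher in RC77 T/E. KDM5C, CTBP1 and EHMT2 were 2.31, 2.04 and 2.01 times higher in MDA PCa 2b when nothing was added, and KDM5C and CTBP1 would pass 2-fold at a higher position of their decimal marks. BTRC and USP7, which set how fast REST is degraded, were expressed in both and were 1.45 and 1.64 times higher in MDA PCa 2b.

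Of 14 listed REST target genes, 1 reached 1 TPM in MDA PCa 2b against 3 in RC77 T/E, beside 49.6% and 52.8% of all genes. Of the 14, 2 were 2-fold or more towards RC77 T/E and 0 towards MDA PCa 2b, beside 11.3% and 11.4% of all genes. The median log2 ratio was 0.10, or 3.29 over those averaging 1 TPM or more (L1CAM and VGF). Both L1CAM and VGF pass that filter only through RC77 T/E, so the sign of 3.29 follows from the filter. L1CAM, a neural adhesion molecule, was at 0.0341 TPM in MDA PCa 2b, against 30.0 TPM in RC77 T/E, the widest difference among the 14 targets. VGF, whose promoter match is printed above, also passed a 2-fold difference towards RC77 T/E. SYN1, with the other printed match, was at 0.00310 and 0.392 TPM. STMN2, SNAP25 and CRH were listed at 0 in MDA PCa 2b, and none of them reached 0.2 TPM in RC77 T/E. GRIN1, a glutamate receptor subunit and the single target expressed in MDA PCa 2b, went the other way, at 1.14 TPM there and 0.177 TPM in RC77 T/E. SYT4 was at 0.116 TPM in MDA PCa 2b but listed at 0 in RC77 T/E.

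**Figure D4:**
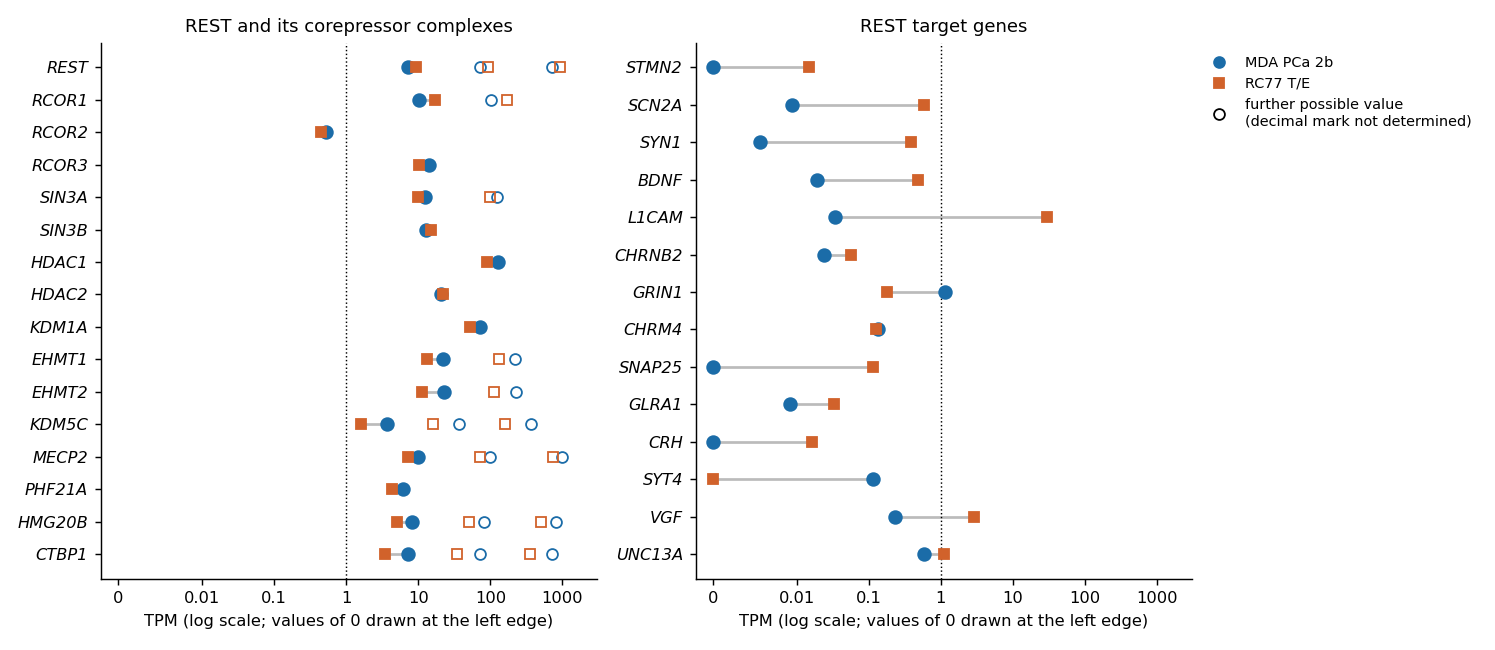
TPM on a log axis of REST with 15 corepressor genes (left) and of 14 REST target genes (right), with circles for MDA PCa 2b, squares for RC77 T/E and open symbols for further possible values. The corepressors except RCOR2 lie above the dotted line at 1 TPM in both lines. Of the 14 targets, 10 lie below it in both, beside 9256 of all 21382 genes, and L1CAM reaches 30.0 TPM in RC77 T/E.

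SRRM4 belongs to a group of splicing regulators with neural forms. Its paralog SRRM3 was at 0.0304 TPM in MDA PCa 2b, against 0.115 TPM in RC77 T/E, whereas SRRM1 and SRRM2, general splicing proteins, were above 20 TPM in both. Of 14 listed splicing regulators in the table, not all of them neural, 5 reached 1 TPM in MDA PCa 2b against 6 in RC77 T/E. The shares of all genes were 49.6% and 52.8%. PTBP1, PTBP2, RBFOX2, ESRP1 and ESRP2 reached 1 TPM in both lines, and ELAVL2 in RC77 T/E only. ELAVL2 was at 0.440 TPM in MDA PCa 2b, against 5.96 TPM in RC77 T/E, and PTBP2 was 2.33 times higher in RC77 T/E. The epithelial regulator ESRP2 was 3.24 times higher in MDA PCa 2b. NOVA1, NOVA2, RBFOX1, RBFOX3, ELAVL3, ELAVL4, CELF3 and SRRM3 were under 1 TPM in both.

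In contrast to MYCN, its relatives were expressed in both cell lines. All 7 listed genes of the MYC network were at 1 TPM or more in each line, 0 were 2-fold or more towards RC77 T/E and 2 towards MDA PCa 2b. MYC was 1.69 times higher in RC77 T/E, and MYCL, the lung cancer member of the family, was 2.45 times higher in MDA PCa 2b. MYCNOS, which overlaps MYCN on the opposite strand, was at 0.0387 TPM in MDA PCa 2b but listed at 0 in RC77 T/E. DDX1 and NBAS, often co-amplified with MYCN, were above 6 TPM in both, and DDX1 was 1.07 times higher in MDA PCa 2b. AURKA, a kinase that stabilises the MYCN protein, was 5.95 times higher in RC77 T/E, and EZH2, a chromatin partner of MYCN, was 1.35 times higher there. The proliferation genes TOP2A and MKI67 were also higher in RC77 T/E, by 3.67 and 1.96 times, and their part in the AURKA difference was not tested.
RB1, a tumour suppressor whose loss goes with neuroendocrine PCa, was expressed in both and was 2.49 times higher in RC77 T/E.

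The cell lines differed widely in lineage markers beside these genes. All 7 listed luminal prostate genes reached 1 TPM in MDA PCa 2b, against 3 of 7 in RC77 T/E, and the luminal protease gene TMPRSS2 was at 483 TPM in MDA PCa 2b, against 0.108 TPM in RC77 T/E. The basal keratin KRT5 was at 0.00435 TPM in MDA PCa 2b, against 4027 TPM in RC77 T/E. Another basal keratin, KRT14, was expressed in both cell lines: RC77 T/E had 3255 TPM, while MDA PCa 2b had 37.4 TPM. EPCAM, CDH1, KRT8 and KRT18 were also expressed in both. Of 16 markers of other cell types, 0 reached 1 TPM in MDA PCa 2b against 2 in RC77 T/E, CD14 at 4.92 TPM and COL1A1 at 8.24 TPM. The defining leukocyte gene PTPRC was at 0.0113 TPM in MDA PCa 2b but listed at 0 in RC77 T/E, and all 4 glial genes were under 1 TPM in both. The part of these lineage differences in the values of the 9 genes was not tested.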

How the data were processed

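RNA-Seq data of the PCa cell lines (1 library each) were used as deposited. The authors gave TPM per locus for each cell line, with the mean and standard error of both. The submitters' processing notes name CASAVA, FastQC 0.11.9, Trimmomatic 0.38, Salmon 1.2.0 and GRCh38; other steps are not given in the sources used here. Deposited TPM values of at least 1 with 3 or more decimals had lost their decimal mark, so the values are not plain TPM as the design had assumed. The mark was restored by trying up to 3 digits before it and keeping the positions that matched the deposited mean and standard error. Of 22791 rows, which hold 22704 loci, 16212 loci had 1 position and 6492 had 2 or 3; the lowest was then used. On 5000 simulated rows, all 3126 rows with 1 position were restored correctly. In 1996 loci that another table of the study also lists, 1313 of 1313 with 1 position were equal, and the lowest was right in 527 of 683 others (77.2%). That other table served only for this comparison and was not used to choose positions. The loci where the lowest was wrong therefore kept it.

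Loci were summed by symbol. The ratio was log2 of the TPM values plus 1. With 1 library per group no test was made, and a 2-fold difference was a rule of size. Depth is unknown because TPM keeps no counts. The 9 genes and the lists around them were chosen with earlier results of these data known. The genes named are the 9, list genes at 1 TPM or more or on which a list turns, and genome neighbours; a few further genes of these lists are not reported here, nor counted. Positions are the deposited ones; overlaps came from GENCODE 29. Alternatives were other thresholds, pseudocounts, filters, scalings, the largest locus and the highest decimal position. Python 3.11.15, numpy 2.4.6 and matplotlib 3.10.9 were used.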

Additional observations from a re-analysis of the deposited data

How the results depend on the processing

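With 1 library per cell line, depth unknown and no replicate error, the differences describe these libraries only. No paired analysis was possible because there is 1 library per group. At a threshold of 5 TPM, 1 of the 9 genes counted as expressed in MDA PCa 2b with ENO2 at 3.36 TPM, and 2 with ENO2 at 33.6 TPM, against 2 in RC77 T/E, where CHGB was lost. When 0.1 TPM was added in place of 1, the log2 ratio of CHGB was 3.40 and that of MYCN was -0.82. Where the genes had to average 1 TPM or more over both libraries, only ENO2 and REST were left, and 1 (ENO2) was 2-fold or more towards RC77 T/E. In all, 79 values moved by at most 1.5 times and 14 moved by more, of which 10 were medians of gene lists. The 79 include settings that could not move a value. Each of the 9 genes is a single locus, so the largest locus equals the sum. The highest decimal position could change only ENO2 and REST among them. Centring shifts every ratio by the same amount, under 1.5 times, and the sign turns of INSM1, MYCN and SRRM4 are among the 79. This tally is therefore no measure of stability. The highest decimal position put the log2 ratio of ENO2 at 2.25.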
